A study of Mus musculus with 4 samples.

Results

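The genes described are the CREB family (Creb1, Crem, Atf1), the CRTC coactivators (Crtc1, Crtc2, Crtc3) and the salt-inducible kinases (Sik1, Sik2, Sik3). They were read by gene name from the deposited count table, which holds all 9 among its 28193 genes. fosTRAP-seq sequenced ribosome-associated RNA from hippocampal CA1, pulled down through an HA tag on the ribosomal protein Rpl22. All mice were male C57BL/6J, 3 to 5 months old, and carried viral vectors with a tamoxifen-dependent Cre driven by the Fos promoter and a Cre-dependent HA-Rpl22 driven by the EF1a promoter. Both groups received 4-hydroxytamoxifen and were kept awake for 5 h by gentle handling on day 0, so that neurons active in that bout became tagged. On day 7 the SD (sleep deprived) mice were kept awake for 5 h again from the start of the light phase, and the NSD (non-sleep deprived) mice were left undisturbed. Tissue was taken at ZT5, and each library is 1 pool of the CA1 of 5 mice, with 2 libraries per group. The labels name dorsal hippocampus and the genotype cFos-Cre:Ribotag, where the study's methods describe vectors and dissected CA1. They also give each library a batch number that equals its replicate number, so that each batch holds 1 NSD and 1 SD library. Tagging depends on Fos activity and on vector uptake, and the share of the RNA that came from tagged neurons was not measured in these libraries.

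CREB is a transcription factor that turns on activity-dependent genes when kinases such as PKA phosphorylate it and when CRTC proteins bind it. Salt-inducible kinases phosphorylate CRTC proteins, which are then held in the cytoplasm by 14-3-3 proteins, and PKA in turn inhibits the SIKs. Calcineurin removes the phosphate from CRTC proteins when calcium enters a neuron. Sik1 and Crem are themselves CREB targets in many cells, so both act as feedback brakes, Sik1 on the coactivators and Crem through short repressor isoforms called ICER. A mutation of Sik3 that removes a PKA site raises sleep need in mice, which makes the SIK family a subject of sleep research.

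CREB binds the cAMP response element (CRE), TGACGTCA, and also its shorter form TGACG. Promoter windows from RefSeq (build GRCm38.p6, 250 bases before to 50 after a gene's start) were held for 6 of the 9 genes, namely Creb1, Atf1, Crtc1, Crtc3, Sik2 and Sik3, and not for Crem, Crtc2 or Sik1. The 250 bases before the start are shown for 3 genes, because they are the windows with the most short motifs, with 1 and with 0. Capitals mark TGACG, or CGTCA for the other strand, and each sequence runs 5′ to 3′ on the gene's strand. Sik3 is at chr9:46012570-46012819 (plus strand), Atf1 at chr15:100227609-100227858 (plus strand) and Creb1 at chr1:64532554-64532803 (plus strand).
Sik3: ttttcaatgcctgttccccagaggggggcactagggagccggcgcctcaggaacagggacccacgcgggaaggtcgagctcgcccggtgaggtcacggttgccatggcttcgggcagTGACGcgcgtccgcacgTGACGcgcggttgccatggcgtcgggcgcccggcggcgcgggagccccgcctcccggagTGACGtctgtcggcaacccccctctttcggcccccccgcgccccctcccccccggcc
Atf1: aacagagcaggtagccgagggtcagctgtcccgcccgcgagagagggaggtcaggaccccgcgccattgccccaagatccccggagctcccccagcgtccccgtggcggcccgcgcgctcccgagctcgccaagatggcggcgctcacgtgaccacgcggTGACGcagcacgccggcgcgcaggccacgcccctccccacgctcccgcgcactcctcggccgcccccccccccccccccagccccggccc
Creb1: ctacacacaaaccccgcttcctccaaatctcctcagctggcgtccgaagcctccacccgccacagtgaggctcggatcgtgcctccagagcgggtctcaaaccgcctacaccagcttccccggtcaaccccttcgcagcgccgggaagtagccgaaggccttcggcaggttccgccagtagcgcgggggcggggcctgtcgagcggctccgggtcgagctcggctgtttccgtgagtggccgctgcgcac
In the Sik3 promoter the short motif begins 133, 116 and 57 bases before the start, and in the Atf1 promoter 90 bases before it. The Sik2 window holds 2, beginning 1 base before the start and at base 13 after it. The windows of Creb1, Crtc1 and Crtc3 hold none. The 8-letter element was in 0 of the 6 windows. Over all 32851 windows of the table, searched on both strands, 20.8% hold the short motif and 1.79% the 8-letter element, which contains the short one. These letters are a description of the sequence, and binding was not measured.

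The libraries held between 153511705 and 195910235 estimated counts. Of the genes, 22338 had more than 5 counts in every library and were tested, including all 9. A gene was called when edgeR's quasi-likelihood test gave an adjusted p (Benjamini-Hochberg over all genes tested) under 0.05 and a fold change over 1.2. By this rule 0.770% of the genes tested were called higher in SD and 2.33% lower, and 0.952% and 0.540% of the protein-coding ones. Marker sums showed where the RNA differed between groups. The 6 endothelial markers summed to 37.0 and 51.3 CPM (counts relative to library size, with TMM scaling) in NSD and to 30.3 and 20.1 in SD, and 5 of the 6 were lower in both SD libraries. Of the 6 CA1 pyramidal markers, 4 were lower in both SD libraries, although the sums overlapped (5767 and 6036 CPM in NSD, 5460 and 5896 in SD). For comparison, the SD values were all under the NSD values for 27.5% of all genes tested and 20.0% of the protein-coding ones. The sums overlapped for astrocytes (414 to 455 CPM in NSD, 428 to 463 in SD), oligodendrocytes (1403 to 1694, 1566 to 1648), microglia (62.3 to 77.6, 58.7 to 77.9), interneurons (774 to 810, 719 to 796) and dentate granule cells (31.6 to 40.4, 33.4 to 36.9), and no marker was at 0, so that RNA of cell types other than pyramidal neurons was present in every library. TEC genes, Ensembl's class of unconfirmed transcripts, took 0.210% to 0.273% of the counts in NSD and 0.118% to 0.157% in SD. The part of these shifts in the results below was not tested. In pooled tissue, fewer cells with an RNA and less RNA per cell cannot be told apart.

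Sik1 rose after the second bout of sleep deprivation, and it was the only member that passed the test. Sik1 (ENSMUSG00000024042, chromosome 17 from 32063224 to 32074778, minus strand, GRCm39) encodes the inducible kinase of the family. It was at 21.8 and 21.7 CPM in NSD and at 31.7 and 33.3 in SD. The NSD libraries were nearly the same, and both SD libraries were well above them. The means were 21.7 ± 0.0792 CPM in NSD (s.d., n = 2) and 32.5 ± 1.10 in SD (s.d., n = 2), a fold change of 1.49. On the log2 scale the change was 0.58 (standard error 0.074, 95% confidence interval 0.41 to 0.75, edgeR adjusted p = 0.0328), and its unadjusted p was number 24 from the smallest among the genes tested. Within batch 1 the log2 difference was 0.54 and within batch 2 it was 0.62. The change lay between 0.56 and 0.62 with each library left out in turn, and Sik1 passed the test each time. When low counts were filtered by edgeR's filterByExpr instead, it did not pass (log2 fold change 0.59, adjusted p = 0.0628), and its fold change was under 1.5.

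For Sik2 and Sik3 the SD values all exceeded the NSD values, but neither passed the test. Sik2 (chromosome 9 from 50804101 to 50920373, minus strand) encodes a kinase of CRTC proteins found in many tissues. It was at 44.9 and 45.1 CPM in NSD and at 51.1 and 55.3 in SD, a log2 fold change of 0.24 (standard error 0.070, 95% confidence interval 0.081 to 0.40, edgeR adjusted p = 0.102). The gap between groups was larger than the spread within either, and it stayed below a fold change of 1.2. With the batch number as a block the adjusted p of Sik2 was 0.0177 and with DESeq2 0.0286, and in both fits the fold change was still under the threshold (log2 fold changes 0.24 and 0.26). Exons of Sik2 share 1429 bases with Ppp2r1b, a phosphatase 2A subunit gene on the other strand. The count of Ppp2r1b was 36.5% of that of Sik2, and its log2 fold change was 0.24 (edgeR adjusted p = 0.169). The study's methods name a stranded library kit, but whether the counting used the strand is not given in the sources used here.
Sik3 (chromosome 9 from 45924118 to 46135492, plus strand) was at 288 and 323 CPM in NSD and at 331 and 356 in SD. The groups did not overlap, but NSD library 2 lay close to SD library 1. The log2 fold change was 0.17 (standard error 0.090, 95% confidence interval -0.036 to 0.38, edgeR adjusted p = 0.362), which leaves room for no change and for one of 1.2-fold. With the block the Sik3 adjusted p was 0.112.

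**Figure D1:**
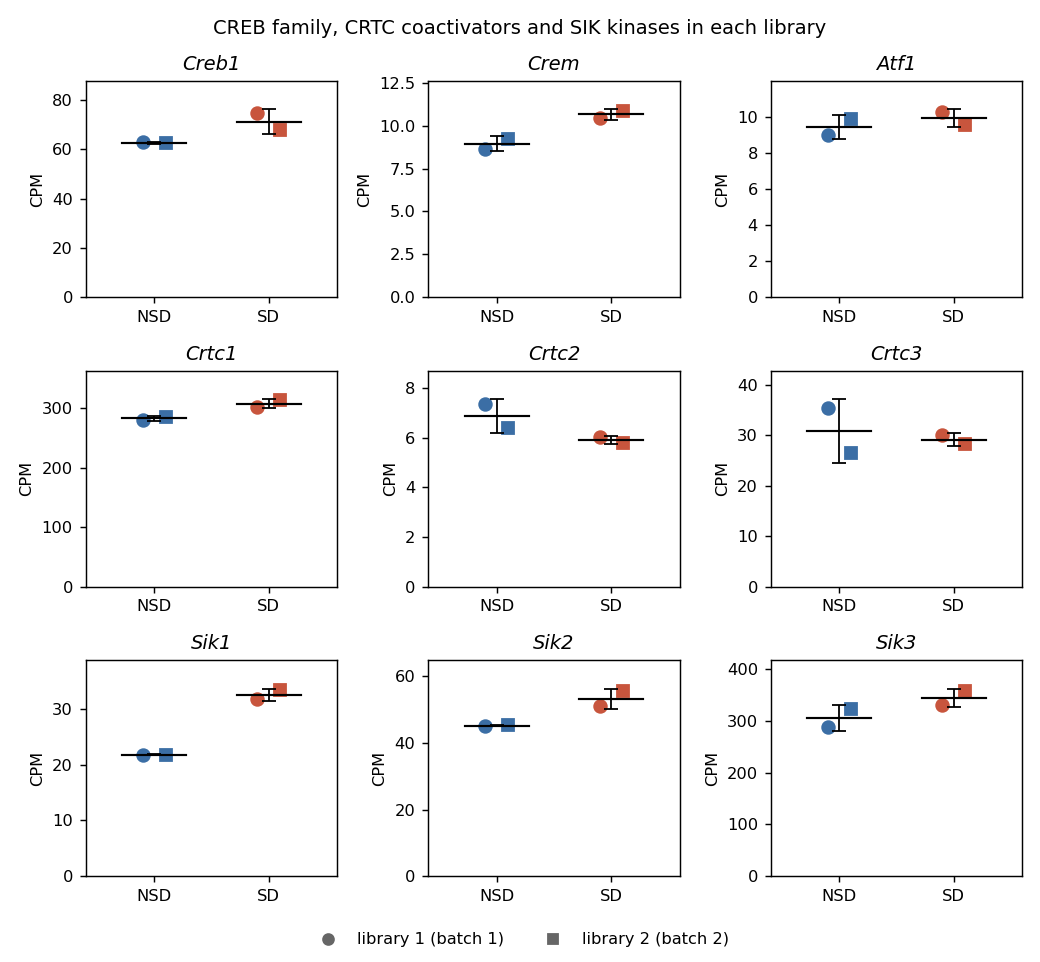
Level of each of the 9 genes in CPM (vertical axes start at 0 and differ between genes), for NSD (blue) and SD (red), with 1 point per library, circles for batch 1 and squares for batch 2, and with the mean and s.d. of each group in black. For Sik1 both SD points (31.7 and 33.3 CPM) are far above both NSD points (21.8 and 21.7), while for Atf1 and Crtc3 the groups overlap.

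In the CREB family the changes were smaller than that of Sik1, and none was called. Creb1 (chromosome 1 from 64571804 to 64643707, plus strand), which encodes CREB itself, was at 62.9 and 62.4 CPM in NSD and at 74.8 and 67.6 in SD. Both SD libraries were higher, SD library 1 more so. The log2 fold change of Creb1 was 0.19 (standard error 0.072, 95% confidence interval 0.021 to 0.35, edgeR adjusted p = 0.205), and it was 0.11 without SD library 1 and 0.27 without SD library 2.
Crem (chromosome 18 from 3266048 to 3337748, minus strand) encodes activators and, from an internal promoter, the ICER repressors. Its counts are summed over isoforms here, so ICER cannot be told apart from the rest. Crem was at 8.66 and 9.25 CPM in NSD and at 10.4 and 10.9 in SD, without overlap, a log2 fold change of 0.25 (standard error 0.10, 95% confidence interval 0.014 to 0.49, edgeR adjusted p = 0.235). Exons of Crem share 788 bases with the lncRNA Gm6225 on the other strand, whose level went the other way, from 1.92 and 1.16 CPM in NSD to 0.791 and 0.640 in SD (edgeR adjusted p = 0.115, 0.0204 with the block).
Atf1 (chromosome 15 from 100125700 to 100159125, plus strand) encodes a close relative that pairs with CREB. It was at 8.96 and 9.87 CPM in NSD and at 10.3 and 9.56 in SD, so the groups overlapped (log2 fold change 0.074, 95% confidence interval -0.18 to 0.32, edgeR adjusted p = 0.795). Within batch 1 Atf1 differed by 0.20 on the log2 scale and within batch 2 by -0.047.

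None of the 3 CRTC genes was called. Their estimates differed in sign, but their 95% confidence intervals overlapped, and a difference between them was not tested. Crtc1 (chromosome 8 from 70835005 to 70892229, minus strand) encodes the coactivator best known in neurons, which travels from synapse to nucleus. It was at 280.3 and 286 CPM in NSD and at 302 and 313 in SD. Both SD libraries were higher by a little, with a log2 fold change of 0.12 (standard error 0.076, 95% confidence interval -0.053 to 0.30, edgeR adjusted p = 0.456).
Crtc2 (chromosome 3 from 90161470 to 90171432, plus strand), known for its part in liver glucose production, was at 7.36 and 6.39 CPM in NSD and at 6.02 and 5.80 in SD. Both SD libraries were below both NSD libraries, and it was the only member with that order. The log2 fold change of Crtc2 was -0.22 (standard error 0.13, 95% confidence interval -0.53 to 0.089, edgeR adjusted p = 0.446), and it was -0.084 without NSD library 1.
Crtc3 (chromosome 7 from 80236375 to 80338625, minus strand) was at 35.4 and 26.4 CPM in NSD and at 30.0 and 28.2 in SD. The NSD libraries lay on either side of the SD libraries. The log2 fold change of Crtc3 was -0.087 (95% confidence interval -0.38 to 0.20, edgeR adjusted p = 0.791), and its sign rests on NSD library 1, since without that library it was 0.17.

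**Figure D2:**
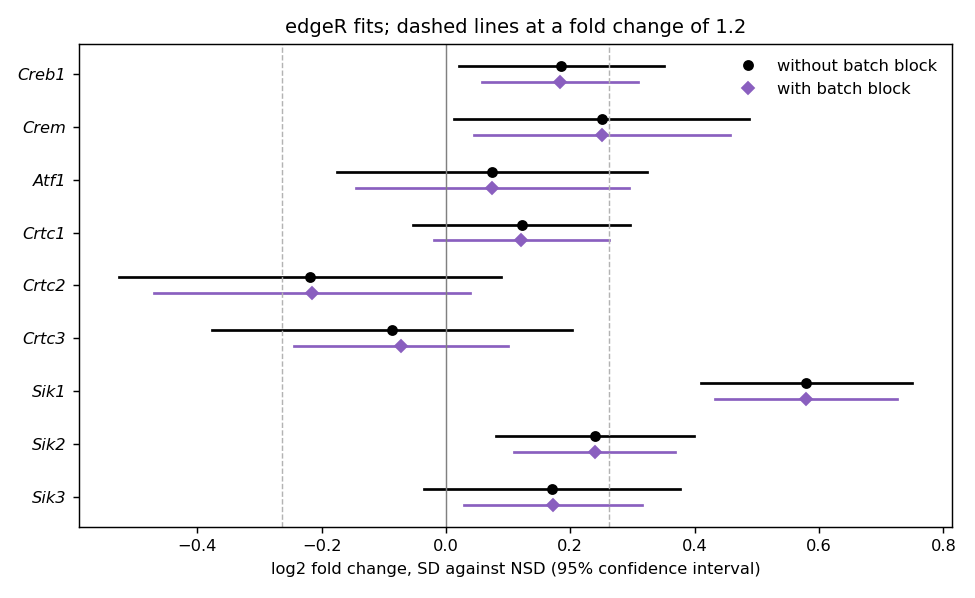
Log2 fold change (SD against NSD, horizontal axis) with its 95% confidence interval for each gene, from edgeR without (black circles) and with (purple diamonds) the batch number as a block, and with dashed lines at a fold change of 1.2. The interval of Sik1 (0.41 to 0.75) lies beyond the upper dashed line, and the estimates of the other 8 genes lie between the dashed lines.

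Of the 9 genes, then, 1 was called higher and 0 lower, by edgeR with or without the block and by DESeq2. At an unadjusted p under 0.05 in edgeR, 4 of the 9 were higher and 0 lower, against 6.86% higher and 12.2% lower over all genes tested and 8.86% and 5.76% over the protein-coding ones. The SD values all exceeded the NSD values for 6 of the 9, against 22.0% of all genes tested and 26.5% of the protein-coding ones, and were all below them for 1, against 27.5% and 20.0%. The median log2 fold change of the 9 was 0.17, against -0.016 over all genes tested and 0.018 over the protein-coding ones. With the block the background was 2.99% called higher and 8.47% lower over all genes tested, and 3.77% and 3.29% over the protein-coding ones. With DESeq2 it was 3.004% and 5.80%, and 3.92% and 1.79%.

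**Figure D3:**
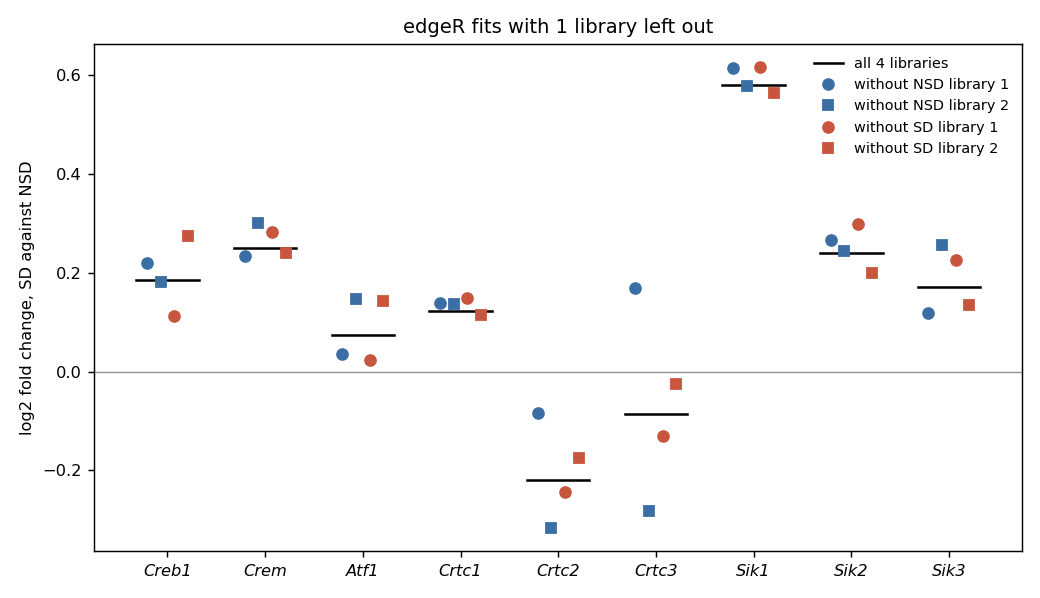
Log2 fold change of each gene (vertical axis) in edgeR fits that leave out 1 library, with a black line for the fit to all 4. The points of Sik1 stay between 0.56 and 0.62, while those of Crtc3 run from -0.28 to 0.17 and cross 0.

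Levels can be compared between genes only per length, in TPM (a share of the library's counts per exon base, scaled to the same total in every library, with the union of a gene's exons as its length). Sik3 (206 ± 12.6 TPM, s.d. over all 4 libraries) and Crtc1 (152.6 ± 4.05) were far above the other 7. Creb1 (29.2) and Sik2 (27.9) came next, and their ranges over the libraries overlapped, at 27.4 to 32.4 and 25.8 to 30.5 TPM. Sik1 followed at 21.4 TPM, and its range (17.3 to 25.6) overlapped that of Crtc3 (12.8 to 17.6). Crtc3 was at 14.5 and Atf1 at 13.8, also with overlapping ranges, and Crem (9.62) and Crtc2 (9.35) were lowest and overlapped too. The order below the top 2 genes depended on the length used. With the canonical transcript, which is longer than the exons within the deposited span of Sik1, its mean level was 12.3 TPM, and it came after Crtc3 (23.6), Atf1 (16.4) and Crem (13.4). These places are those of means over both groups, and with that length the range of Sik1 (9.91 to 14.7) overlapped those of Crem (12.2 to 14.4) and Crtc2 (8.35 to 11.2). Sik2 (36.2) then came before Creb1 (32.5), with overlapping ranges (33.4 to 39.7 and 30.4 to 36.2). The ranges of Sik3 (192 to 224) and Crtc1 (199 to 212) also overlapped, and those of Crtc3 and Atf1, and of Crem and Crtc2, did not. Within the SIK family Sik3 supplied 79.5% to 82.7% of the TPM in each library. The share of Sik1 was 7.65% and 6.93% in NSD and 9.51% and 9.27% in SD, without overlap, and with the canonical length it was 4.34% and 3.92% against 5.44% and 5.30%. The share of Sik2 overlapped between groups, at 11.3% and 10.3% in NSD and 10.98% and 11.1% in SD. Crtc1 supplied 83.9% to 88.0% of the CRTC family's TPM, and Creb1 54.0% to 56.7% of that of the CREB family.

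**Figure D4:**
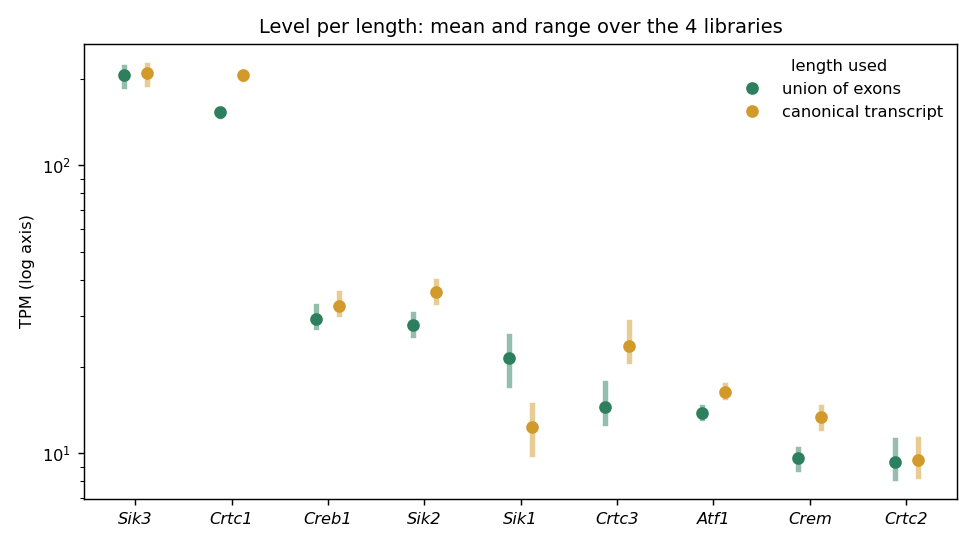
Level per length (TPM, log axis) of each gene, as the mean (point) and range (bar) over the 4 libraries, with the union of exons (green) or the canonical transcript (yellow) as the length. Sik3 (206 TPM) and Crtc1 (152.6 TPM) stand above the rest with either length. By its mean over both groups Sik1 falls from place 5 to 8 with the canonical length, where its range overlaps those of Crem and Crtc2, and Creb1 and Sik2 trade places with overlapping ranges.

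For the gene of each family with the largest change, the protein-coding genes with the nearest pattern over the 4 libraries were sought, by the Euclidean distance between centred log2 CPM values, among 12991 genes with a mean of at least 1 CPM. Nearest to Sik1 were Myh7b (distance 0.023), Trib1 (0.054) and Zdbf2 (0.072). Trib1, which encodes a pseudokinase, went from 15.1 and 15.6 CPM in NSD to 22.9 and 23.1 in SD, and Zdbf2, an imprinted gene, from 88.6 and 92.8 to 129.8 and 133. Both had an edgeR adjusted p of 0.0328, and Myh7b had one of 0.216. Nearest to Crem were Ogfod1 (0.012), Ube3b (0.017) and Cisd3 (0.018), and nearest to Crtc2 were Cmya5 (0.010), Invs (0.015) and Gcfc2 (0.021). With 4 libraries, many genes share any such pattern.

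Another 34 genes encode proteins that act on CREB, CRTC or SIK proteins or are substrates of the SIKs, and all were tested. In the edgeR fit to all 4 libraries without the block, 0 were called in either direction. At an unadjusted p under 0.05, 7 of the 34 were higher and 3 lower, beside 8.86% and 5.76% of the protein-coding genes tested. The median log2 fold change of the 34 was 0.040. With the batch block 2 of the 34 were called higher and 2 lower, beside 3.77% and 3.29% of the protein-coding genes, and with DESeq2 2 and 1, beside 3.92% and 1.79%. Rps6ka2, which encodes an RSK kinase of the family that phosphorylates CREB, was at 67.1 and 59.3 CPM in NSD and at 76.9 and 80.2 in SD (log2 fold change 0.31, edgeR adjusted p = 0.0689, 0.00538 with the block). The other CREB kinase genes lay between -0.063 (Rps6ka1) and 0.23 (Prkacb, a PKA catalytic subunit). The acetyltransferase genes Crebbp and Ep300, whose proteins bind phosphorylated CREB, were at 0.00095 and 0.099, and the PP1 catalytic genes, whose products remove that phosphate, between 0.0034 (Ppp1cc) and 0.12 (Ppp1ca).
Upstream of the SIKs, Stk11, which encodes their activating kinase LKB1, was at 0.13 (edgeR adjusted p = 0.472). Its partner Strada was at 16.9 and 17.1 CPM in NSD and at 14.4 and 13.6 in SD (log2 fold change -0.28, edgeR adjusted p = 0.123, 0.0362 with the block), while the related Stradb was at 0.21 (0.229, 0.109 with the block). The calcineurin genes lay between -1.12 for the rare Ppp3r2 (19 to 101 counts per library, standard error 0.62) and 0.0094 for Ppp3cb. Ppp3ca, the catalytic subunit gene with most counts, went from 1398 and 1621 CPM in NSD to 1219 and 1306 in SD (log2 fold change -0.26, edgeR adjusted p = 0.264, 0.0514 with the block). The genes for 14-3-3 proteins ran from -0.084 (Ywhah) to 0.22 (Sfn), with 0 called by edgeR or DESeq2 and 0 at an unadjusted p under 0.05.
Class IIa histone deacetylases are a further group of SIK substrates, and their genes went in different directions. Hdac4 was at 138 and 129 CPM in NSD and at 157 and 167 in SD (log2 fold change 0.28, edgeR adjusted p = 0.0829, 0.0112 with the block), and Hdac5 was at 0.22 (0.136, 0.0353 with the block). Hdac7, which is known from endothelial cells, was at 10.9 and 8.48 CPM in NSD and at 7.502 and 5.55 in SD (log2 fold change -0.57, edgeR adjusted p = 0.119, 0.00266 with the block). The endothelial marker sums above moved in the same direction as Hdac7, and their part in its values was not tested. Hdac9 was at -0.20 (0.125, 0.02997 with the block). With the block, Hdac4 and Hdac7 were called, as they were by DESeq2, and Hdac5 and Hdac9 stayed under a fold change of 1.2.

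The 12 other AMPK-related kinase genes, which like the SIKs encode targets of LKB1 (with Melk an exception), had log2 fold changes with a median of 0.13. Of these edgeR called 0, with or without the block, and DESeq2 called 0, with 4 of the 12 higher and 0 lower at an unadjusted p under 0.05 in edgeR, beside the same 8.86% and 5.76%. The values ran from -0.44 for Nuak2 (standard error 0.27) to 0.34 for the rare Melk (12 to 26 counts per library, standard error 0.62). Among the abundant genes Brsk1, a kinase of neuronal polarity, was highest, at 289 and 269.8 CPM in NSD and 335 and 319.7 in SD (log2 fold change 0.23, edgeR adjusted p = 0.166, 0.0344 with the block).

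A list of 24 genes known as CREB targets, Sik1 and Crem left out, showed log2 fold changes around a median of 0.16. The protein-coding genes tested had a median of 0.018. Of the 24 targets, 16 were above 0, and the share of all genes above 0 was not counted. Of the 24, edgeR called 2 higher and 1 lower, beside 0.952% and 0.540% of the protein-coding genes tested, and with the block 7 and 3, beside 3.77% and 3.29%. At an unadjusted p under 0.05 in edgeR, 9 of the 24 were higher and 2 lower, beside 8.86% and 5.76%. The genes called higher were Arc, a synaptic immediate early gene, which rose by 0.91 on the log2 scale (edgeR adjusted p = 0.0328), and Nr4a1, a nuclear receptor gene, which rose by 0.40 (0.0472). Penk, the enkephalin precursor, fell from 17.7 and 19.03 CPM in NSD to 12.8 and 13.1 in SD (log2 fold change -0.50, edgeR adjusted p = 0.0379). With the block Fosb, Egr1, Nr4a2, Dusp1 and Vgf were also called higher, at log2 fold changes in that fit of 0.62, 0.39, 0.32, 0.32 and 0.28, and Nptx2 and Sst lower, at -0.42 and -0.33. Sst is also an interneuron marker, and SD library 2 held the lowest value of Sst (73.6 CPM, against 106 to 119.96 in the other libraries). Fos overlapped between the groups (271 and 513 CPM in NSD, 336 and 375 in SD). RefSeq windows were held for 17 of the 24 target genes, and 16 of their 24 windows (66.7%) held the short motif described above, against 20.8% of all windows. The list was made of known CREB targets, so its excess of the motif is no result of these data. Bdnf alone has 7 of the 24 windows, with 1 short motif among them.

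**Figure D5:**
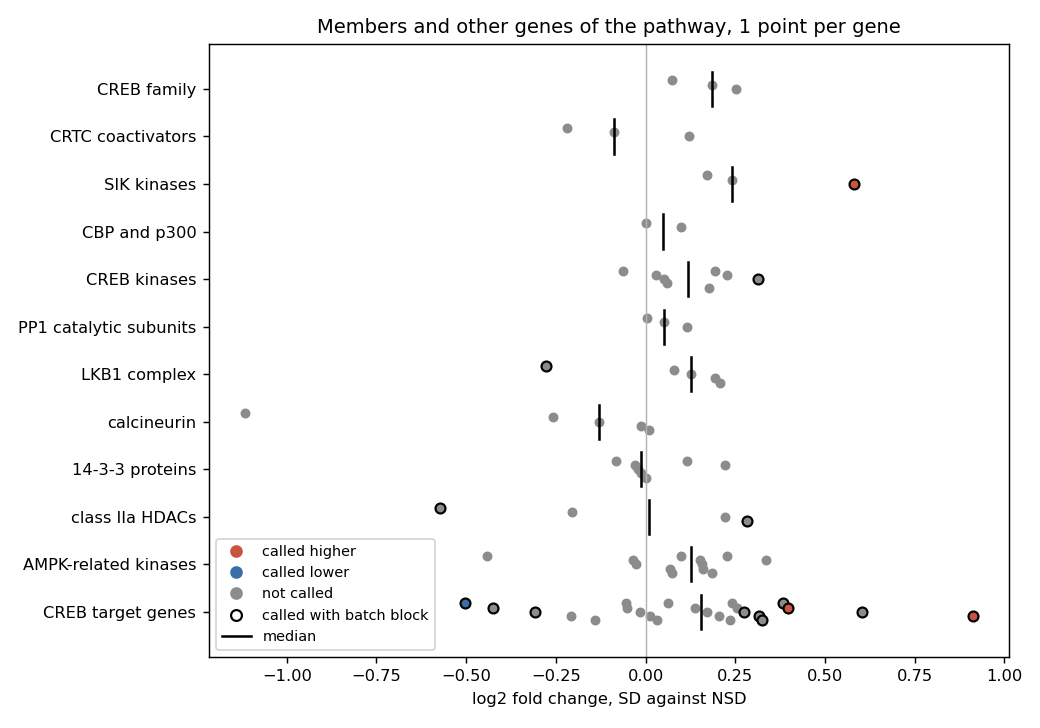
Log2 fold change (SD against NSD, horizontal axis) of the 9 genes and of the other genes of the pathway by role, 1 point per gene, with the median of each group as a black line. Points called by edgeR are red (higher) or blue (lower), and rings mark genes called with the batch block. Sik1 (0.58) is the 1 member called, and the CREB target genes hold the other 3 calls.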

How the data were processed

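fosTRAP-seq libraries of 4 pools (2 NSD, 2 SD) were analysed. The authors trimmed reads, aligned them with STAR 2.7.8a to mm39 (GRCm39) and deposited each gene's estimated counts, made by Partek's E/M model with Ensembl release 110, without normalization. The submitters' processing notes also name Partek. Of the 28193 genes, 55.6% have a value that is not whole, and counts were rounded. Totals were 162943863 and 153511705 (NSD 1 and 2) and 181914848 and 195910235 (SD 1 and 2). Genes above 5 counts in each of the 4 libraries were fitted with edgeR 4.0.16 in R 4.3.3 (TMM, quasi-likelihood, condition as the only term), where the study used DESeq2, with its thresholds of 0.05 and 1.2. Confidence intervals (95%) come from the fit's moderated degrees of freedom. TPM used exons of GENCODE M39, which matched 27962 genes by ID, within the deposited spans. The canonical length was added after the data were seen. p-values measure the spread between pools. An exact permutation test of 2 against 2 libraries cannot go below 0.333.

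Members, lists and named genes were chosen with earlier results of these data known. The named genes are all members, the genes of the other lists that edgeR called with or without the block (at most 8 per list, by smallest p), the extremes of each role and the 3 nearest patterns per family. Outside this rule, Prkacb, Stk11, Ppp3ca, Hdac5, Hdac9, Brsk1, Fos, Vgf, Sst, Gm6225 and Ppp2r1b were named after their values were seen. The labels' batch numbers pair the libraries, and libraries of the same batch deviated together (correlation 0.178 across genes). With 2 libraries per group the crossed pairing must give the same value with the other sign (-0.178). Only the sign therefore bears on the pairing, and it cannot show that the batches matter. Libraries of a group differed by more than sampling noise (chi-square per degree of freedom 80.6 in NSD and 44.6 in SD). The alternatives were DESeq2 1.42.0, its size factors in edgeR, 2 other count filters, protein-coding genes only, the block, other fold thresholds and each library left out. The fits were run first on simulated counts without a batch effect, whose changes were larger than those of the members. That run does not show how often changes of the members' size are found or missed.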

Additional observations from a re-analysis of the deposited data

How the results depend on the processing

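Over 10 alternatives, the log2 fold change of Sik1 lay between 0.56 and 0.62 and passed the test in 9. With edgeR's filterByExpr, which kept 24323 genes, it was 0.59 at an adjusted p of 0.0628. There 0 members were called higher (4 at an unadjusted p under 0.05), and with a fold change over 1.5 also 0. None of the other 8 members was called under any of the 10 alternatives, and only Crtc3 changed sign, to 0.17 without NSD library 1 (-0.28 without NSD library 2). The block changed the call of no member.

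The counts over lists depended on the settings. Over all genes, edgeR called 172 higher and 520 lower (24.9% higher). With DESeq2 it was 671 and 1296, with the batch block 668 and 1891, with no count filter 50 and 80, with filterByExpr 1 and 0 (1594 and 2816 at an unadjusted p under 0.05), with protein-coding genes only 51 and 39 (56.7% higher), and with a fold change over 1.5 43 and 470 (8.4% higher). With 1 library left out, the calls ran from 144 to 321 higher and from 87 to 1953 lower, at 144 and 87 with NSD library 1 out, 239 and 460 with NSD library 2 out, 291 and 1953 without SD library 1, and 321 and 791 without SD library 2. In such a fit the lone library is taken to vary like the others.

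For the 34 pathway genes (0 and 0), DESeq2 called 2 higher and 1 lower, the block 2 and 2, and the fits with 1 library left out 0 to 1 higher (1 without NSD library 1 or SD library 1) and 0 to 2 lower (2 without SD library 1). For the 24 CREB targets (2 and 1), DESeq2 called 7 and 2, the block 7 and 3, filterByExpr 0 and 0 (9 and 2 at an unadjusted p under 0.05), no count filter 1 and 0, a fold change over 1.5 1 and 0, and protein-coding genes only 1 higher. With 1 library left out, 1 to 5 targets were called higher (1 with NSD library 1 out, 4 with NSD library 2 out, 5 without SD library 1, 4 without SD library 2) and 0 to 2 lower (0 without NSD library 2, 2 without each of the others). The AMPK-related kinases gave 0 under all settings. The causes of these shifts were not tested. Counts were low for Melk (12 to 26 per library) and Ppp3r2 (19 to 101), and how far depth or the number of pools limits the precision was not separated.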
